A study of Rattus norvegicus with 10 samples.

Results

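The genes described here are those of the complement and coagulation cascades in rat liver. They were chosen from the deposited isoform table as every gene with an isoform row whose KEGG pathway entry names complement and coagulation cascades, among isoforms that the authors' assembly ties to a reference gene on the same strand (class codes =, c, j and o). This gave 76 genes out of 20226 in the table, through 109 rows. By role, 36 belong to complement and 38 to coagulation and fibrinolysis, and the other 2 are LOC100911854, named in the table as a mannose-binding protein C-like gene, and LOC100911545, named as alpha-2-macroglobulin-like. A gene's value was the sum over all of its isoforms, 170 for these 76 genes, of which 59 were assembled by the authors and carry no KEGG entry.

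Total RNA, depleted of ribosomal RNA, was sequenced from 10 livers of wild-type Wistar rats, 5 after sleeve gastrectomy (SG), an operation that removes most of the stomach, and 5 after a sham operation (SHAM). Every rat in both groups carried the same diabetes model. It was 4 weeks of feed with 60% of calories as saturated fat, then a single injection of streptozotocin, a beta cell toxin, at 35 mg/kg. For all 10 samples alike the labels also give a 16 h fast, a glucose level of 16.7 mmol/L and 3 days after streptozotocin. Because these values are identical for every sample, they are not read here as measurements of single rats or as the time of sampling. The labels put the SG livers at 3 months and state no time for the SHAM livers, so time and operation cannot be told apart where they differ. They give no age, no sham detail and no statement that each library is a separate rat, so the p-values measure the spread between these libraries.

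Complement is a chain of plasma proteases and adaptors that tags microbes and debris, recruits leukocytes and ends in a pore inserted into membranes. Coagulation is a separate protease chain that ends with thrombin cutting fibrinogen into fibrin, held in check by serpins and the protein C system and undone by plasmin. Hepatocytes make and secrete most proteins of both chains, while the C1q chains, VSIG4 and the complement receptors come mainly from macrophages and other myeloid cells.

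Both cascades were abundant in these livers. In mean FPKM (fragments relative to transcript length and library size, so a level per length) over the 10 libraries, 33 of the 76 genes stood at 100 or more and 7 at 1000 or more. Those 7 were C3, Serpina1, Fgb, Kng1, Fgg, Vtn and Fga, and together they held 59.9% of the summed FPKM of the set. A further 26 genes lay between 100 and 1000 FPKM, 15 between 10 and 100, and 13 between 1 and 10. The remaining 15 had a mean under 1 FPKM and were not tested, among them A2m, Bdkrb2, Cd46, Cd55, Cr2, F13a1, F2rl3, F3, Itgam, Itgax, LOC100911545, Plat, Plaur and Procr. This low group held F3, the tissue factor that starts the extrinsic pathway, Plaur, the receptor of urokinase, and A2m, the alpha-2-macroglobulin gene. The hepatocyte markers (Alb, Ttr, Apoa1 and 5 others, 8 of 8 tested) summed to between 32593 and 44441 FPKM in SG and between 28549 and 41153 FPKM in SHAM, and none of them was under 1 FPKM throughout.

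SG libraries held 77617460 to 92110190 estimated counts in total, and SHAM libraries 65824088 to 85520959. The 76 genes took between 5.96% and 9.63% of the gene counts in SG libraries and between 5.61% and 7.48% in SHAM libraries. The 9.63% belonged to the library SG 2, and the other SG libraries lay between 5.96% and 6.81%. SG 2 and SHAM 5 stood apart from their groups in macrophage markers, and many of the values below are also given without one or both of them.

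No gene of either cascade passed the test between SG and SHAM. With edgeR's quasi-likelihood test on estimated counts and Benjamini-Hochberg adjustment over 11139 tested genes, 0 of 61 tested members and 0.0% of all tested genes had an adjusted p under 0.05, and the members' adjusted p lay from 0.991 up to 1. DESeq2 called 18 genes (0.162%), none of them a member. At an unadjusted p under 0.05, 4 members were higher in SG (6.56% of 61) and 0 were lower, beside 4.53% of all tested genes in either direction, 2.68% higher and 1.85% lower. Limma on log2(FPKM + 0.5) gave 8 members higher and 0 lower at that level, beside 5.8% of all genes higher and 0.485% lower. On that FPKM scale the median gene of the table was itself 0.08 higher in SG, against -0.01 in edgeR.

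The log2 fold changes of the 61 tested genes, SG over SHAM, had a median of 0.06 and ran from -0.49 for C1qc to 1.82 for C7. They were positive for 37 genes and negative for 24, which is 60.7% positive beside 47.4% of all tested genes. The coagulation genes had a median of 0.12, with 21 positive and 8 negative, and the complement genes one of -0.08, with 15 positive and 16 negative. Without SG 2 the medians were 0.05 for coagulation and -0.20 for complement, and without SHAM 5 they were 0.13 and 0.03. The complement median was also at or above 0 without SG 5 (0.02) or SHAM 1 (0.00), so its sign depended on single libraries.

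The precision was moderate. The 95% interval of the fold change lay within 2-fold either way for 49 of the 61 genes (80.3%, beside 84.9% of all tested genes) and within 1.5-fold for 28 (45.9%, beside 60.6%). The within-group SD of a member had a median of 0.33 on the log2 CPM scale (counts relative to library size), against 0.26 over all genes. Mbl1, Pros1 and Masp2 varied least among the members, with SDs of 0.13, 0.14 and 0.15, and C7, Serpina5 and Cfd most, with 0.96, 0.87 and 0.78. No member separated the groups: the FPKM ranges of SG and SHAM overlapped for all 61, beside 1.34% of all tested genes whose ranges did not (1.31% with every SG library above, 0.0269% with every SG library below), and on CPM the share of all genes was 0.79% and again no member was among them. With both SG 2 and SHAM 5 left out, every remaining SG library was above every remaining SHAM library for 3 members, C7, F10 and LOC100911854, beside 3.07% of all tested genes.

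**Figure D1:**
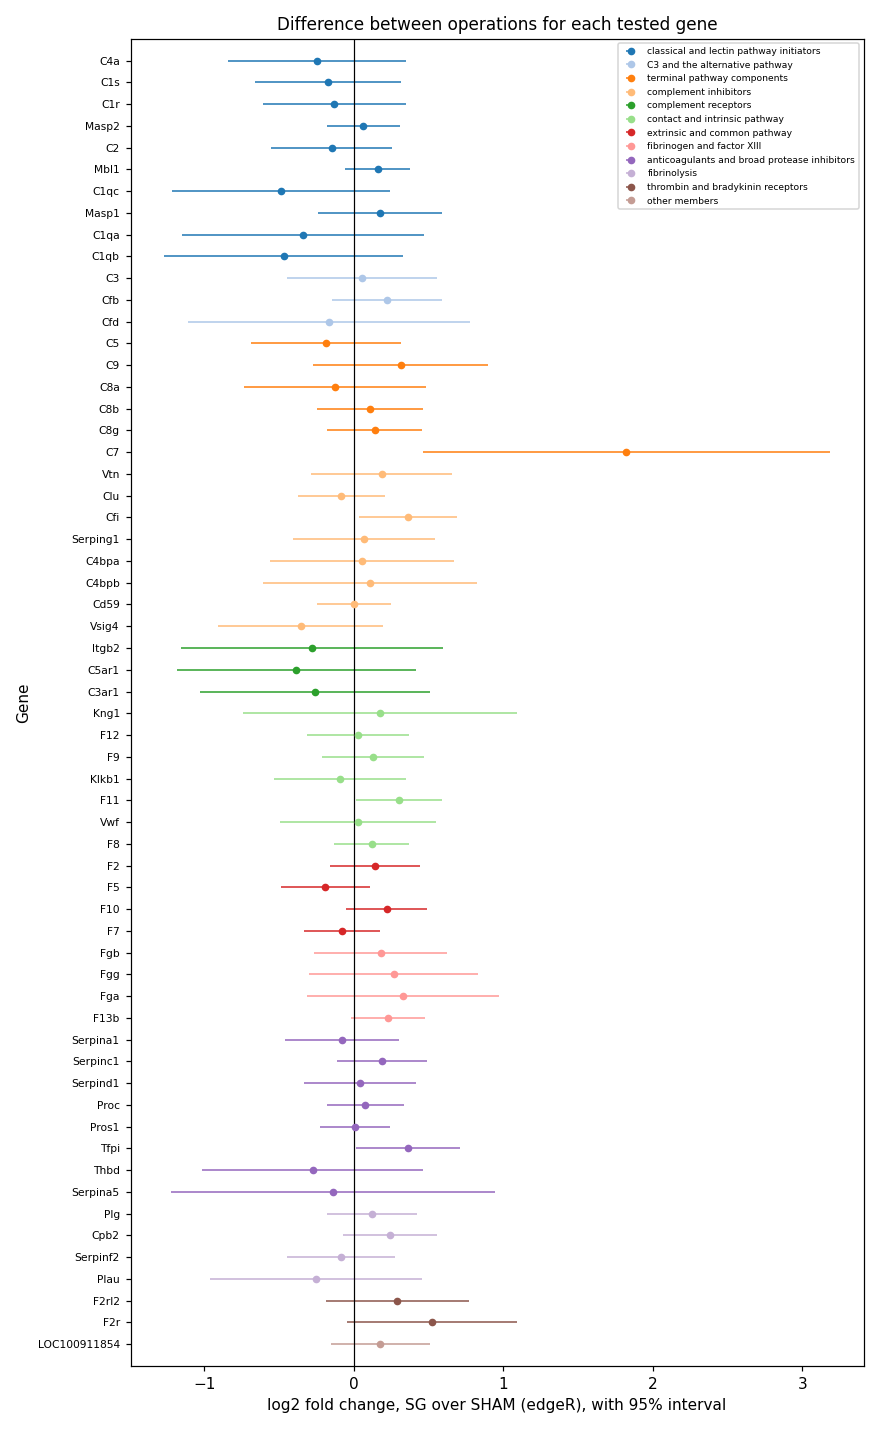
Difference between SG and SHAM livers for 60 of the 61 tested genes, as the log2 fold change from edgeR (horizontal axis, SG over SHAM) with its 95% interval, grouped and coloured by role. C7 lies farthest from 0 at 1.82, the C1q chains and complement receptors lie left of 0, and the widths of most intervals exceed the difference itself.

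The classical and lectin pathways start when C1q or mannose-binding lectin meets a surface and their proteases cut C4 and C2. The 10 initiators had a median log2 fold change of -0.16, with 3 positive and 7 negative and none past the test. The adaptor chains C1qa, C1qb and C1qc had the lowest values. C1qc measured 37.0, 73.3, 36.9, 44.0 and 37.9 FPKM in SG 1 to SG 5, against 41.0, 35.9, 55.3, 58.6 and 106 FPKM in SHAM 1 to SHAM 5. SG 2 was far above the other SG livers and SHAM 5 far above the other SHAM livers, and the ranges overlapped. Its mean was 45.8 ± 15.6 FPKM in SG and 59.4 ± 27.9 FPKM in SHAM (mean ± SD, n = 5 each), with a log2 fold change of -0.49 ± 0.33 (SE) and an unadjusted p of 0.17 in edgeR. Without SG 2 it was -0.72 with an unadjusted p of 0.045 in edgeR, without SHAM 5 it was -0.15, and without both -0.39. C1qb measured 23.3, 47.9, 22.2, 26.4 and 23.1 FPKM in the SG livers, against 24.5, 18.9, 33.1, 40.4 and 65.9 FPKM in the SHAM livers, in numbered order. The same pair of libraries was highest, and its log2 fold change was -0.47 ± 0.36, which was -0.74 without SG 2, -0.13 without SHAM 5 and -0.40 without both. For C1qa it was -0.34 ± 0.36, and -0.62 without SG 2, -0.29 without both and near 0 without SHAM 5. The 3 genes lie side by side within 17697 bp of chromosome 5 (155246447 to 155264143, Rnor_6.0).

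C1q is a macrophage product in liver, and the macrophage markers moved with it from library to library. The summed FPKM of the 8 Kupffer cell and macrophage markers found in the table, of 10 listed, was 207 to 500 over the SG livers and 180 to 418 over the SHAM livers. Their mean score, in centred log2 CPM, reached 1.14 in SG 2 and 0.82 in SHAM 5, while no other liver left the span of -0.67 to 0.22. Across the 10 libraries the score and C1qb had a Pearson r of 0.89 (Spearman rho 0.90, adjusted permutation p of r 0.00117 over a family of 5 correlations). Without SG 2 and SHAM 5, the livers farthest from the median score, r was 0.86. Between the groups the markers were mixed, with 3 positive and 5 negative log2 fold changes, SG over SHAM, and a median of -0.13. In bulk RNA, fewer cells of a type and less RNA per cell cannot be told apart. The part of macrophage number in the C1q values was not tested.

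The other initiators come mainly from hepatocytes. C4a, the substrate cut by the C1 and MASP proteases, averaged 420 ± 123 FPKM in SG and 462 ± 132 FPKM in SHAM, with a log2 fold change of -0.25 ± 0.27. Leaving out SG 2 gave -0.47, leaving out SHAM 1 gave -0.13 and leaving out SHAM 5 gave -0.11. The table also lists a close copy, C4b, so the split of reads between the copies is uncertain. The C4a sum also adds annotated isoforms that do not overlap, at 2651599 to 2652952 and 2667524 to 2678141 on chromosome 20 (Rnor_6.0). Their means over the 10 libraries were 26.0 and 305 FPKM, so the sum overstates the level of a single C4a transcript. C1s, the protease that cuts C4, measured 221, 327, 220, 179 and 179 FPKM in the SG livers, against 277, 187, 199, 183 and 298 FPKM in the SHAM livers. Its log2 fold change was -0.17 ± 0.22, with -0.37 once SG 2 was left out and -0.07 once SHAM 5 was, and the groups overlapped over nearly their whole range. On its rows with a KEGG entry, which hold 29.8% of its FPKM, C1s reached an unadjusted p under 0.05 in edgeR, lower in SG. It was the sole one of 58 tested members lower at that level on such rows, beside 1.86% of all genes. The other C1s isoforms extend far beyond the annotated span (157143592 to 157155609 on chromosome 4, Rnor_6.0). The most abundant of them spans 156728350 to 157155609, so the part of the C1s sum from outside the annotated span is uncertain. The positive members of this group were Masp1, Mbl1 and Masp2, at 0.18 ± 0.19, 0.16 ± 0.10 and 0.06 ± 0.11. All 3 belong to the lectin branch, and none had an unadjusted p under 0.05 in edgeR. Of the lectin genes outside the KEGG set, Colec10 was at -0.19 ± 0.18 and Colec11 at 0.21 ± 0.14.

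C3 is the hub that every route of complement activation cuts. It was the most abundant gene of the set and ranked 21st among all genes by FPKM. C3 measured 2503, 4133, 2220, 3149 and 2176 FPKM in the SG livers, against 2759, 2187, 2338, 2880 and 2648 FPKM in the SHAM livers. The SG livers held both the highest and the lowest value, and the log2 fold change was 0.05 ± 0.23, with a value of -0.12 once SG 2 was left out. Cfb, the protease of the alternative pathway convertase, averaged 525 ± 124 FPKM in SG and 423 ± 31.9 FPKM in SHAM, with a log2 fold change of 0.22 ± 0.17, and 0.09 without SG 2. Cfd, which cuts factor B, was at -0.17 and was among the most variable members.

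The terminal components C5 to C9 assemble the membrane pore. C7, which anchors the growing complex in the membrane, had the largest difference and the smallest p of all members. C7 measured 4.18, 30.7, 4.09, 5.04 and 6.69 FPKM in the SG livers, against 3.15, 1.64, 1.91, 2.42 and 4.31 FPKM in the SHAM livers. The value of SG 2 was several times any other, and of the rest only SHAM 5 reached into the SG range. The means were 10.1 ± 11.5 FPKM in SG and 2.69 ± 1.07 FPKM in SHAM. The log2 fold change was 1.82 ± 0.62, with an unadjusted p of 0.014 and an adjusted p of 0.991 in edgeR. Without SG 2 it was 0.77 ± 0.29 with an unadjusted p of 0.025, and without both SG 2 and SHAM 5 it was 1.05 ± 0.21 with an adjusted p of 0.816.

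C7 differs from most other members in where it is made: it is known largely from stromal and endothelial cells rather than hepatocytes. The stellate cell and fibroblast markers, 8 of 8 tested, summed to between 34.7 and 96.0 FPKM in SG and between 26.1 and 53.3 FPKM in SHAM. Their score reached 1.38 in SG 2, with all other livers at -0.73 to 0.18, and their part in the C7 value was not tested. Almost all C7 signal came from assembled isoforms. The reference transcript held 0.14% of its FPKM, and the rest lay in a pair of pieces covering different ends of the locus on chromosome 2, at 54707626 to 54741555 and 54755209 to 54781607 (Rnor_6.0). The pieces measured 13.9 and 16.8 FPKM in SG 2, and each was higher there than in any other library. Because their FPKM values add, the sum overstates the level of one full transcript.

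Of the other terminal components, C5 averaged 428 ± 98.9 FPKM in SG and 460 ± 134 FPKM in SHAM, with a log2 fold change of -0.19 ± 0.23. Its value moved to -0.33 with SG 2 left out and to -0.05 with SHAM 5 left out. This sum too adds annotated pieces that do not overlap, at 14049995 to 14112851 and 14207044 to 14229080 on chromosome 3 (Rnor_6.0), with means of 187 and 246 FPKM over the 10 libraries, so it overstates the level of one C5 transcript. C9, which polymerises to form the pore wall, measured 197, 424.5, 227, 231 and 179 FPKM in the SG livers, against 239, 170, 131, 175 and 251 FPKM in the SHAM livers. SG 2 was again alone at the top, and the log2 fold change of 0.31 ± 0.27 was 0.04 without it. C8a, C8b and C8g, whose products join as one component, had -0.13, 0.11 and 0.14. The reference transcript of C8g (2724616 to 2727616 on chromosome 3, Rnor_6.0) held 0.81% of its FPKM. The most abundant assembled isoform spans 2716539 to 2726196, beyond that transcript, so the part of the C8g sum from outside the annotated span is uncertain.

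Inhibitors keep complement off host cells. The 9 tested of 11 had a median of 0.06, with 6 positive and 3 negative, and -0.09 without SG 2. Cfi, the protease that cuts C3b and C4b with the help of cofactors, measured 308, 432, 277, 394 and 353 FPKM in the SG livers, against 289, 267, 208, 250 and 275 FPKM in the SHAM livers. All but the lowest SG value lay above every SHAM value. The means were 353 ± 62.6 FPKM in SG and 258 ± 31.2 FPKM in SHAM, with a log2 fold change of 0.36 ± 0.15, an unadjusted p of 0.033 and an adjusted p of 0.991 in edgeR. Its only isoform carries the KEGG entry, so the KEGG rows alone hold the same Cfi values and are no second test of it. On those rows Cfi was the single member of 58 higher at an unadjusted p under 0.05 in edgeR, beside 2.68% of all genes. The log2 fold change of Cfi was 0.27 ± 0.14 with an unadjusted p of 0.082 in edgeR without SG 2.

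The most abundant inhibitors were plasma proteins that block pore formation. Vtn averaged 1382 ± 378 FPKM in SG and 1141 ± 184 FPKM in SHAM, with a log2 fold change of 0.19 ± 0.21. SG 2 was its highest library, and the value was 0.04 without it, 0.10 without SG 4 and 0.11 without SHAM 3. Clu averaged 511 ± 61.4 FPKM in SG and 507 ± 63.2 FPKM in SHAM, with a log2 fold change of -0.08 ± 0.13 in edgeR and 0.011 in limma on FPKM. Neither differed beyond its spread. Vsig4, a receptor of resident macrophages that inhibits the alternative pathway, measured 12.2, 16.5, 12.4, 12.9 and 12.4 FPKM in the SG livers, against 13.3, 9.51, 14.5, 15.9 and 25.7 FPKM in the SHAM livers. SHAM 5 was highest and SHAM 2 lowest, as for C1qb. Its log2 fold change was -0.36 ± 0.25, and single libraries moved it between -0.51 without SHAM 2, where the unadjusted p in edgeR was under 0.05, and -0.09 without SHAM 5. Without both SG 2 and SHAM 5 it was -0.19. Cd46 and Cd55, the membrane inhibitors, were under 1 FPKM in every library, while Cd59 was at 0.00 ± 0.11, the closest to no difference in the set.

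Complement receptors were scarce. Itgb2, the beta chain of complement receptors 3 and 4, measured 8.59, 14.0, 5.53, 6.58 and 6.64 FPKM in the SG livers, against 6.10, 3.15, 9.53, 10.8 and 16.1 FPKM in the SHAM livers. The log2 fold change of -0.28 ± 0.40 was 0.023 without SHAM 5. C5ar1, the receptor of the C5a fragment, averaged 1.34 ± 0.600 FPKM in SG and 1.61 ± 0.614 FPKM in SHAM, with a log2 fold change of -0.38 ± 0.36, and -0.67 without SG 2 or -0.18 without SHAM 5. SG 2 and SHAM 5 were the highest libraries of their groups for both genes, as for the macrophage score. The alpha chains Itgam and Itgax and the complement C3d receptor Cr2 were not tested.

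**Figure D2:**
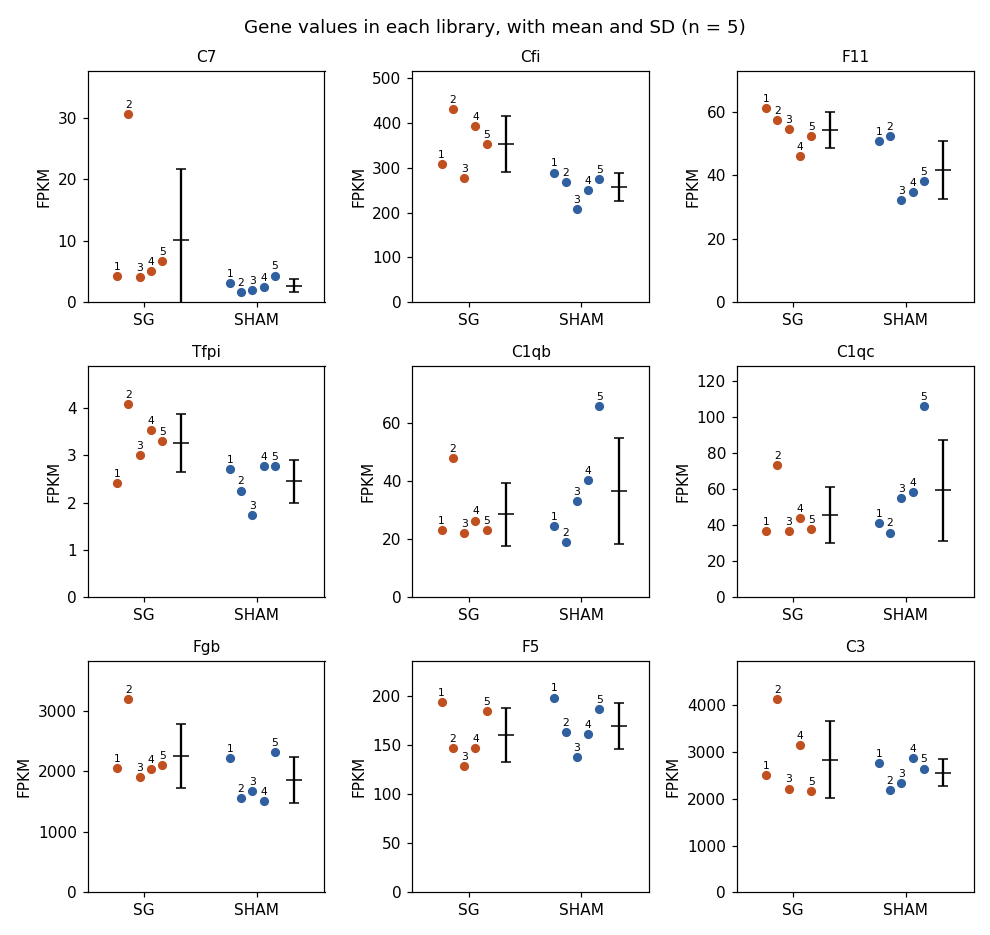
FPKM (vertical axis, from 0) of 9 genes in each library, with the replicate number above each point and the mean and SD of the 5 libraries of each group beside them. SG 2 is highest among SG livers in 7 of the 9 panels, all but F11 and F5. SHAM 5 is highest among SHAM livers for C7, C1qb, C1qc and Fgb, and, barely above SHAM 4, for Tfpi. Every pair of groups overlaps, and the lower SD bar of C7 in SG reaches below 0.

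The contact system starts clotting in the test tube when factor XII meets a negative surface, and it releases bradykinin from kininogen. The 7 members of the contact and intrinsic pathway had a median log2 fold change of 0.12, with 6 positive and 1 negative. F11, the protease that activates factor IX, measured 61.0, 57.4, 54.5, 46.0 and 52.2 FPKM in the SG livers, against 50.6, 52.2, 32.3, 34.7 and 38.1 FPKM in the SHAM livers. SHAM 3, SHAM 4 and SHAM 5 lay below every SG liver, and the remaining pair of SHAM livers sat inside the spread of SG. The means were 54.2 ± 5.64 FPKM in SG and 41.6 ± 9.22 FPKM in SHAM. The log2 fold change of F11 was 0.30 ± 0.13, with an unadjusted p of 0.043 in edgeR. Single libraries left out moved it between 0.24 and 0.37. The unadjusted p in edgeR was not under 0.05 without SG 1, SG 2, SG 3, SHAM 3, SHAM 4 or SHAM 5. F12 averaged 283 ± 39.4 FPKM in SG and 260 ± 44.2 FPKM in SHAM, at 0.03 ± 0.15. F9 and F8, the protease and cofactor of the intrinsic complex, had 0.13 and 0.12, and Klkb1, the prekallikrein gene that neighbours F11 on chromosome 16, had -0.09.

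Kng1, kininogen, was the most variable of the abundant members. It measured 1497, 3447, 1530, 1440 and 1182 FPKM in the SG livers, against 2919, 1530, 1762, 778 and 811 FPKM in the SHAM livers. SG 2 and SHAM 1 were the high libraries, and SHAM 4 and SHAM 5 the low ones. The log2 fold change of 0.18 ± 0.41 was -0.21 without SG 2 and -0.36 without SG 2 and SHAM 5. Rats carry several closely related kininogen genes, among them acute phase T-kininogens, and the table has a single kininogen symbol, so reads of the copies may be joined in it. An assembled isoform of Kng1 was above 0 in just SG 2 and SHAM 3, where it held 17.0% and 42.5% of the gene's FPKM.

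The extrinsic and common pathway runs by way of factor VII and factor X to thrombin. F2, prothrombin, averaged 718 ± 77.6 FPKM in SG and 611 ± 81.4 FPKM in SHAM, with a log2 fold change of 0.14 ± 0.14, and 0.08 without SHAM 3. F5, the cofactor of factor X, measured 194, 147, 129, 147 and 185 FPKM in the SG livers, against 198, 163, 138, 161 and 187 FPKM in the SHAM livers. The groups covered nearly the same range, and the log2 fold change was -0.19 ± 0.13. The annotated F5 rows held 0.57% of that signal, and the rest lay in 3 assembled pieces that follow one another along chromosome 13, so the summed FPKM overstates the level of one F5 transcript. F10 and F7 lie within 31836 bp of each other on chromosome 16 and had 0.22 and -0.08. Their signs differed, and neither had an unadjusted p under 0.05 in edgeR.

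Fibrinogen is a hexamer of paired alpha, beta and gamma chains, the products of Fga, Fgb and Fgg, and it is the substance of the clot and a classical acute phase protein. The genes lie together on chromosome 2 within 50962 bp (181987217 to 182038178, Rnor_6.0). The letters before their start sites are shown because the 3 genes varied together in these livers. They are the 250 bases upstream of each start from RefSeq on assembly GRCr8, 5′ to 3′ on the gene's strand, and 50 of the 76 members had an entry in that table. Capitals mark every match, on either strand, to CTGGGA, the core of the interleukin-6 response element, and to ATTAAC, a half-site of the hepatocyte factor HNF1; the marked letters do not overlap.
Fga, chr2:170671919-170672168, plus strand: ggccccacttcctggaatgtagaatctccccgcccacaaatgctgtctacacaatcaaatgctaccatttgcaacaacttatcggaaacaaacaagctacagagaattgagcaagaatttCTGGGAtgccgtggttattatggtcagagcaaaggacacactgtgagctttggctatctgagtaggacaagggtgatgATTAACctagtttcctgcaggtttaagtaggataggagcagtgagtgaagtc
Fgb, chr2:170700876-170701125, minus strand: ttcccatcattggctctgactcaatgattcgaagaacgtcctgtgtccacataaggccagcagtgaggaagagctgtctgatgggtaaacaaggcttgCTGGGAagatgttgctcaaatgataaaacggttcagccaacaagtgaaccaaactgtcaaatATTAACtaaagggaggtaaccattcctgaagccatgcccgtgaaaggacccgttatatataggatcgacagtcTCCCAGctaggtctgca
Fgg, chr2:170652833-170653082, plus strand: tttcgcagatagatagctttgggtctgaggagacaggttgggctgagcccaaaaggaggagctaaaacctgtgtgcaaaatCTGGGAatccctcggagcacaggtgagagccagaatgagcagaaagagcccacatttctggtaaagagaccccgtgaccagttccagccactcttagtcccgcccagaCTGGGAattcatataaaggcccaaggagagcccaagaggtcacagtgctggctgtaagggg
Fga held 1 CTGGGA beginning 130 bases before the start and 1 ATTAAC at 52 bases. Fgb held CTGGGA at 152 bases, its reverse at 17 bases, and ATTAAC at 90 bases. Fgg held CTGGGA at 169 and 61 bases and no ATTAAC in this window. CTGGGA occurred in 25.8% of 27457 promoter windows of the same length and in 24 of 50 member windows (48.0%), and ATTAAC in 6.52% of all and in 11 of 50 (22.0%). A match describes letters and is no evidence of binding.

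The chains varied together from liver to liver. Fga measured 1256, 2432, 923, 1207 and 1077 FPKM in the SG livers, against 1422, 724, 1057, 841 and 1105 FPKM in the SHAM livers. Fgb measured 2060, 3188, 1899, 2044 and 2098 FPKM in the SG livers, against 2224, 1565, 1680, 1514 and 2314 FPKM in the SHAM livers. Fgg measured 1644, 2755, 1188, 1584 and 1253 FPKM in the SG livers, against 1798, 993, 1399, 1153 and 1317 FPKM in the SHAM livers. SG 2 was the highest library for all 3, and the other SG livers lay within the SHAM range for each.

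Across the 10 libraries, on log2 CPM, Fga and Fgg had a Pearson r of 0.99 (rho 0.94, adjusted permutation p of r 0.0002), which was 0.94 without SG 2 and SHAM 2, the libraries farthest from the median. For Fga and Fgb r was 0.92 (rho 0.89, adjusted permutation p 0.000925) and 0.68 without the same pair, with a permutation p of 0.0571, so that relation rests in part on those livers. For Fgb and Fgg r was 0.86 (rho 0.75, adjusted permutation p 0.00282), 0.84 without SG 2 and SHAM 5, and 0.68 without SG 2 alone. Fgb and the score of 15 acute phase genes had an r of 0.60 (rho 0.28, permutation p 0.0857), and -0.13 without SG 2 and SG 1. That relation rested on SG 2, where the acute phase score was 0.57 against -0.26 to 0.10 elsewhere.

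The group differences of fibrinogen were small beside its spread. Fga averaged 1379 ± 603 FPKM in SG and 1030 ± 269 FPKM in SHAM, with a log2 fold change of 0.33 ± 0.29. Fgb averaged 2258 ± 526 FPKM in SG and 1859 ± 380 FPKM in SHAM, at 0.18 ± 0.20, and Fgg averaged 1685 ± 631 FPKM in SG and 1332 ± 303 FPKM in SHAM, at 0.27 ± 0.26. Without SG 2 the log2 fold changes of all 3 were 0.02. F13b, the carrier subunit of the enzyme that cross-links fibrin, measured 62.7, 59.7, 55.8, 61.3 and 74.5 FPKM in the SG livers, against 57.9, 56.5, 36.6, 47.5 and 49.8 FPKM in the SHAM livers. Its log2 fold change was 0.23 ± 0.11 with an unadjusted p of 0.064 in edgeR, and SG 2 was not its highest library. F13a1, the catalytic subunit, made by blood cells, stood at 1.59 FPKM in SG 2 and under 0.1 FPKM in every other library.

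**Figure D3:**
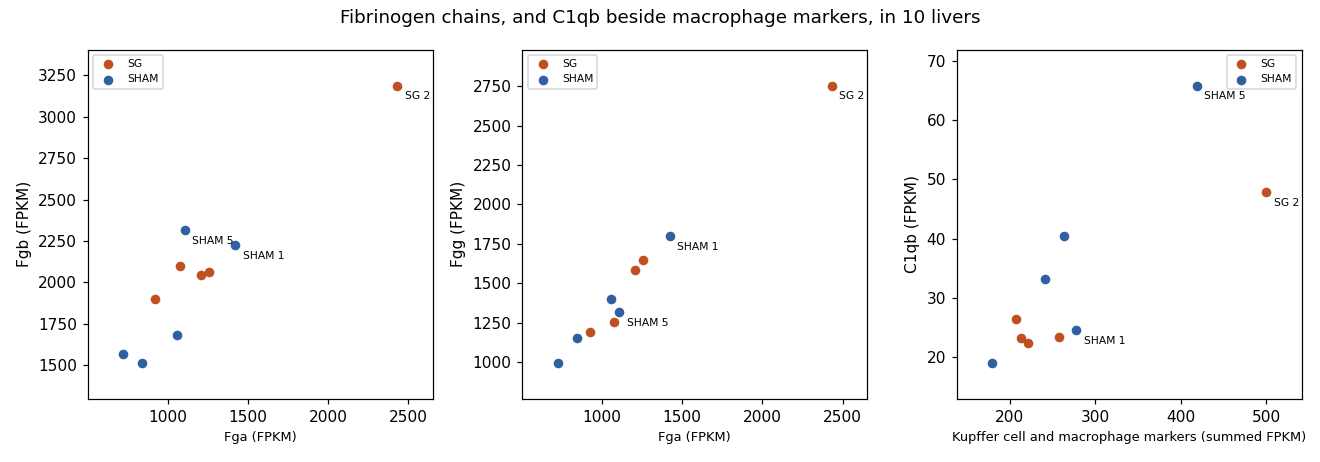
Fgb and Fgg against Fga, and C1qb against the summed Kupffer cell and macrophage markers, all in FPKM, with 1 point for each of the 10 libraries. The fibrinogen chains line up from the lowest library to SG 2 (r 0.92 and 0.99 on log2 CPM), and C1qb is highest in SG 2 and SHAM 5, which also hold the most macrophage marker signal.

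Anticoagulants limit thrombin. The 8 tested of 10 had a median of 0.02, with 5 positive and 3 negative. Serpina1, the inhibitor of neutrophil elastase and the second most abundant member, averaged 2525 ± 461 FPKM in SG and 2486 ± 381 FPKM in SHAM, at -0.08 ± 0.17 in edgeR and 0.019 in limma on FPKM. Serpinc1, antithrombin, averaged 718 ± 101 FPKM in SG and 593 ± 58.9 FPKM in SHAM, at 0.19 ± 0.14, and 0.11 without SG 2. Neither passed the test. Tfpi, which blocks the factor VII and tissue factor complex and is known mainly from endothelium, measured 2.41, 4.07, 3.00, 3.52 and 3.30 FPKM in the SG livers, against 2.71, 2.25, 1.74, 2.77 and 2.77 FPKM in the SHAM livers. Every SG liver but SG 1 exceeded every SHAM liver. Its log2 fold change was 0.36 ± 0.16 with an unadjusted p of 0.044 in edgeR, and 0.23 without SG 2. The endothelial marker score reached 0.43 in SG 2, beside 0.37 in SHAM 5, and its part in the Tfpi value was not tested.

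Fibrinolysis dissolves the clot through plasmin. Plg, plasminogen, averaged 933 ± 76.2 FPKM in SG and 803 ± 104 FPKM in SHAM, at 0.12 ± 0.14, with 0.06 once SHAM 3 and 0.19 once SHAM 5 was left out. Cpb2, a carboxypeptidase that slows fibrinolysis, averaged 202 ± 39.9 FPKM in SG and 162 ± 17.4 FPKM in SHAM, at 0.24 ± 0.14, and 0.15 without SG 2. Serpinf2, the plasmin inhibitor, and Plau, the urokinase activator, had -0.08 and -0.25. The direction was mixed, with 2 positive and 2 negative members. Among the receptors of thrombin, F2r averaged 1.57 ± 0.567 FPKM in SG and 1.04 ± 0.262 FPKM in SHAM, at 0.52 ± 0.26 with an unadjusted p of 0.067 in edgeR. SG 2 was its highest library at 2.49 FPKM, and without it the log2 fold change was 0.29. F2rl2 averaged 3.06 ± 0.598 FPKM in SG and 2.35 ± 0.600 FPKM in SHAM, at 0.29 ± 0.22, and at 0.16 without SHAM 3 or without SG 3.

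LOC100911854 measured 53.0, 61.6, 46.3, 55.4 and 57.4 FPKM in the SG livers, against 36.2, 39.5, 38.9, 40.3 and 56.0 FPKM in the SHAM livers. SHAM 5 alone reached the SG range. Its log2 fold change was 0.18 ± 0.15 in edgeR, and 0.32 ± 0.11 with an unadjusted p of 0.015 without SHAM 5. LOC100911545 was listed between 0.0845 and 2.67 FPKM in SG and between 0.0303 and 1.03 FPKM in SHAM. It followed A2m, its neighbour and close copy on chromosome 4, in having its highest value in SG 1, and the split of reads between them is uncertain.

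Many members had their highest value in the same liver. SG 2 was the highest of the 10 libraries in FPKM for 28 of the 61 tested genes (45.9%, beside 15.9% of all tested genes), and in CPM for 25 (41.0%, beside 13.7%). SHAM 5 was the highest in CPM for 17 members (27.9%, beside 12.6% of all genes). Set against the mean of the other SG livers, SG 2 had a median difference of 0.56 in log2 CPM over the members, with 47 of 61 above 0 (77.0%), while the median over all genes was -0.01 with 48.9% above 0. These values describe single libraries and carry no test.

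The excess of SG 2 was uneven across the roles. Its median was 1.01 for the complement receptors, 0.83 for fibrinogen and factor XIII, 0.82 for the initiators, 0.75 for C3 and the alternative pathway, 0.65 for the inhibitors and 0.54 for the terminal components. It was 0.41 for the thrombin and bradykinin receptors, where 1 of 2 was above 0, and 0.26 for fibrinolysis, where 4 of 4 were. It was 0.20 for the contact pathway, 0.05 for the extrinsic and common pathway and -0.07 for the anticoagulants, where 3 of 8 were above 0. C7, Kng1, C4bpa and Fga had the largest differences, at 2.69, 1.35, 1.20 and 1.15, and Serpina5, Serpind1, Cd59 and Serpina1 the lowest, at -0.57, -0.54, -0.27 and -0.25. Beside these stood the macrophage, stellate and acute phase scores of SG 2 given above, while the hepatocyte score of SG 2 was -0.14, within the -0.16 to 0.19 of the other SG livers. The part of each in these values was not tested.

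**Figure D4:**
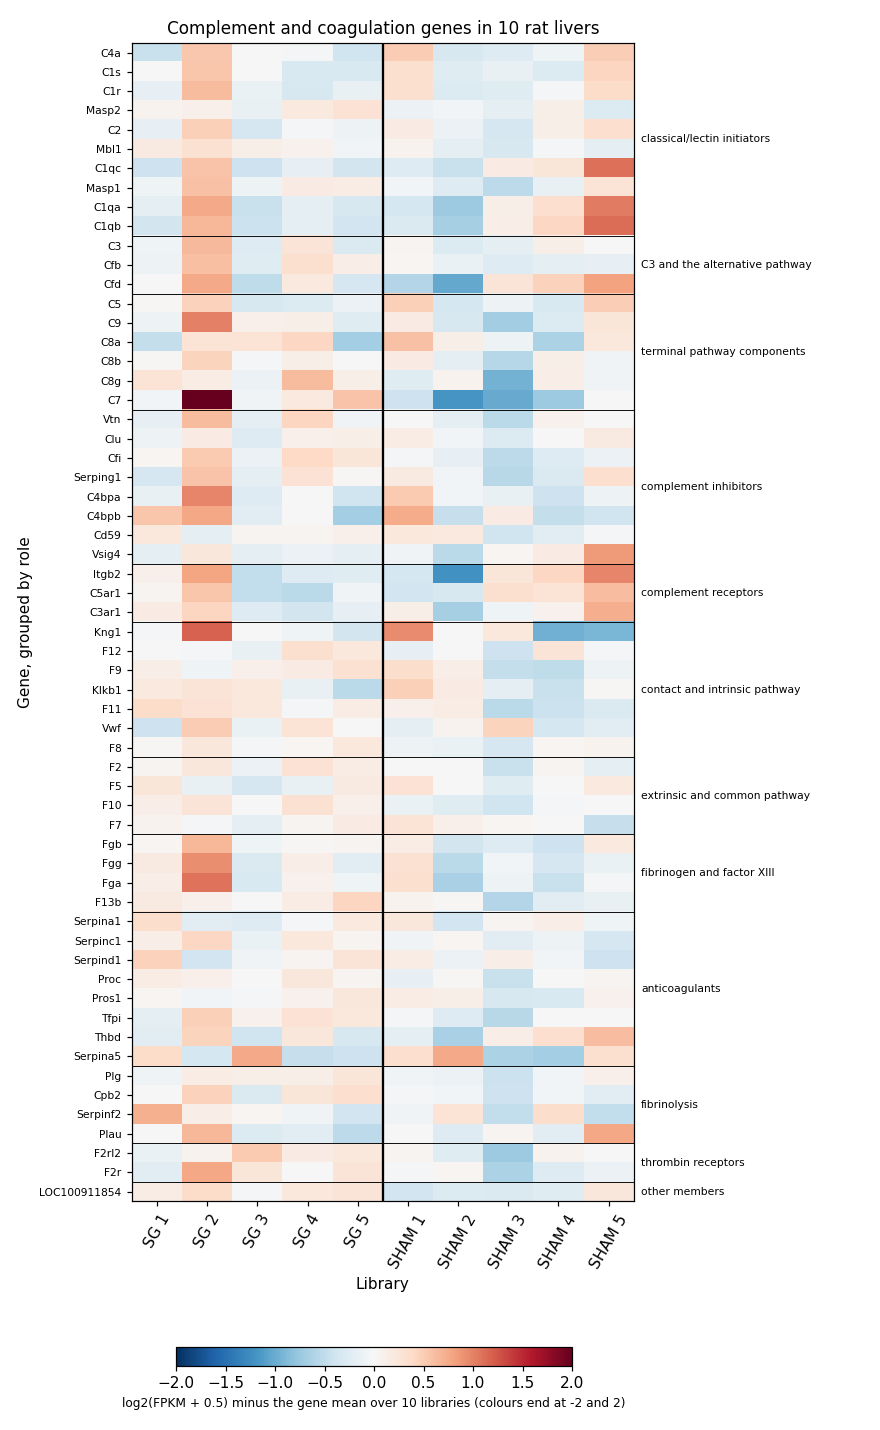
The level of 60 of the 61 tested genes (rows, by role) in each library (columns, SG left and SHAM right), coloured by log2(FPKM + 0.5) minus the gene's mean over the 10 libraries, with colours that end at a 4-fold difference either way. The column of SG 2 is red over most complement rows and the fibrinogen rows, SHAM 5 is red for the C1q chains, Vsig4 and the receptors, and SHAM 3 holds the lowest FPKM of 24 of the 61 genes (39.3%, beside 19.0% of all tested genes).

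Other genes that serve these cascades were not called either. Of 18 related genes outside the KEGG set, such as Ggcx and Vkorc1 of the vitamin K cycle that clotting factors need, 17 were tested, with 7 positive, 10 negative and 0 at an unadjusted p under 0.05 in edgeR. Of the 15 acute phase genes, 8 were positive and 7 negative, and none passed the test. Apcs, a pentraxin that binds C1q, had a log2 fold change of 0.47 and Il6r, a receptor of interleukin-6, one of -1.01, both at an unadjusted p under 0.05 in edgeR. The summed FPKM of the 15 acute phase genes was between 9259 and 16942 in SG and between 8934 and 12331 in SHAM. Markers of blood cells were scarce. Of 6 neutrophil genes, Mpo, Elane, Csf3r and Ngp were under 1 FPKM in every library, while S100a8 averaged 0.942 FPKM in SG livers and 0.424 in SHAM livers and S100a9 1.02 and 0.296; none of the 6 was abundant enough to be tested. Of 6 platelet genes, Ppbp, Gp9, Gp1bb and Treml1 were under 1 FPKM throughout, while Itga2b lay at 2.42 to 4.14 FPKM in SG livers and 1.84 to 3.49 in SHAM livers and Pf4 at 0.606 to 2.37 and 0.617 to 2.35. The part of blood cells in the members' values was not tested.

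Some members had a different mix of isoforms in different libraries. Of the 76 genes, 49 had annotated rows alone and 27 also had assembled isoforms. Annotated rows held under 50% of the FPKM in 8 genes and under 10% in 5, namely C7, F5, C8g, Serpinf2 and Masp1. Proc, the gene of protein C, summed to 135 ± 7.74 FPKM in SG and 117 ± 16.0 FPKM in SHAM. Its annotated row read 94.6 FPKM in SG 5, 70.9 in SHAM 1 and 92.2 in SHAM 2, with the remaining 7 libraries at 2.15 to 7.94. An assembled isoform took up the difference, so a value from the annotated row alone would vary widely where the gene did not. The Proc switch fell in both groups. In C9 an assembled isoform was above 0 in SHAM 5 alone, at 87.6 FPKM. In Fga an assembled isoform was above 0 in SG 2 alone, at 489 FPKM, where it held 20.1% of the gene's FPKM.

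**Figure D5:**
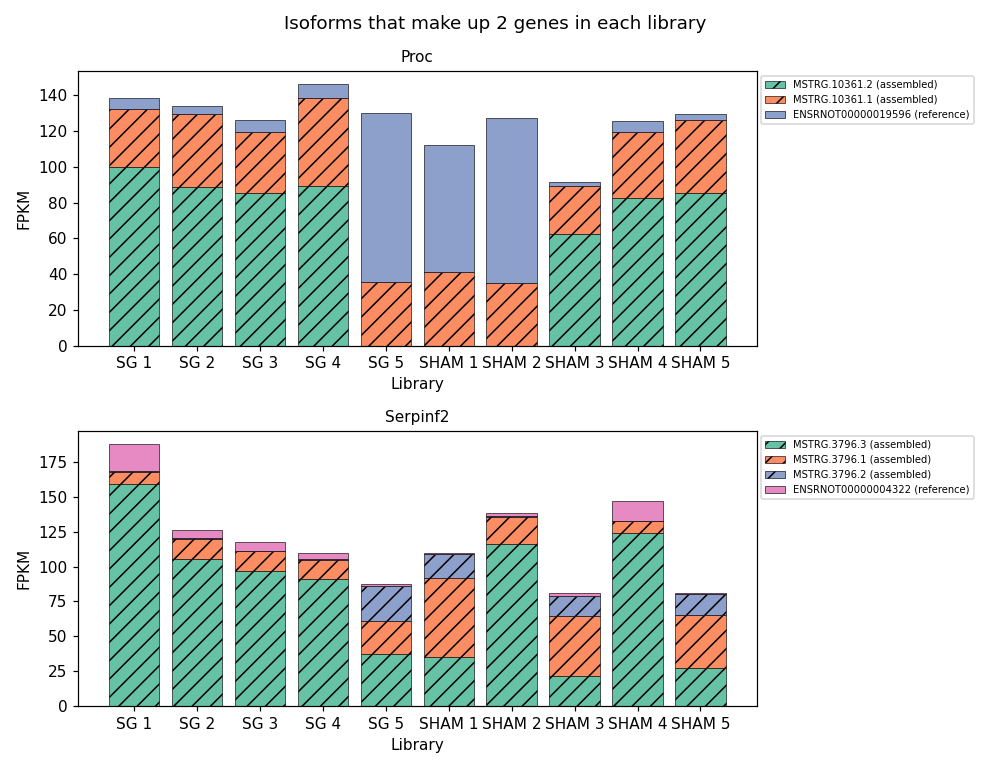
FPKM of each isoform (stacked, hatched where assembled by the authors) of Proc and Serpinf2 in each library, SG left and SHAM right. The total height of Proc stays between 91.4 and 146 FPKM while the annotated isoform is dominant in just SG 5, SHAM 1 and SHAM 2.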

How the data were processed

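The 10 libraries, 5 SG and 5 SHAM by their labels, were made from ribosomal RNA depleted total RNA with an RNA integrity number above 7.0, per the labels' protocols. Reads were handled with HISAT2 2.0.4 and StringTie 1.3.4 on Rnor_6.0, beside cutadapt 1.9 and FastQC 0.10.1, per the submitters' processing notes. Values come from a single deposited table, 51430 isoforms long, whose FPKM are scaled to length and library size. The same table holds the estimated counts of each isoform that the authors deposited, in which isoforms share reads by estimate.

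KEGG entries stand on 9171 reference-matching rows and 4 others, so the rule's 109 rows leave out assembled isoforms of the same genes. Gene values here sum all isoforms of class =, c, j or o, and values from the KEGG rows alone are an alternative chosen after seeing the data. Genes with a mean of at least 1 FPKM entered the test: edgeR 4.0.16 (R 4.3.3) quasi-likelihood, rounded counts, TMM scaling, two-sided, Benjamini-Hochberg over 11139 genes, threshold 0.05. Standard errors come from its F statistic, and the test was checked on simulated counts. Limma 3.58.1 with pseudocounts 0.1, 0.5 and 1, DESeq2 1.42.0, other filters and scalings, a replicate block, each library left out and both SG 2 and SHAM 5 left out were alternatives. Correlations used 100000 permutations. Motif letters were read from RefSeq promoters of another assembly, GRCr8.

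Genes named with full values were the 2 most abundant of each role and the 5 smallest p in each direction, and other members named with values were chosen after their values were seen. The members, roles and lists were chosen with earlier results of these data known. Same-numbered SG and SHAM libraries did not vary together, with correlations between -0.22 and 0.14, so numbers were not treated as pairs. Some members count in the totals but are not reported here by name.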

Additional observations from a re-analysis of the deposited data

Results flagged for a closer look

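Within each group of 5 libraries, 88 groups of values were searched for a library far from the other 4 (32 named genes and 12 role sums). Chance flags about 1 group in 20. There were 15 such values, 12 of them in SG 2, 2 in SHAM 5 and 1 in SHAM 3. Values of one library share its RNA, and the sums hold the genes, so they are not independent.

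Among complement genes SG 2 stood at 327 FPKM for C1s, 73.3 FPKM for C1qc, 47.9 FPKM for C1qb, 424.5 FPKM for C9, 30.7 FPKM for C7 and 16.5 FPKM for Vsig4. The other SG libraries lay between 179 and 221, 36.9 and 44.0, 22.2 and 26.4, 179 and 231, 4.09 and 6.69, and 12.2 and 12.9 FPKM for these genes, in the same order. Among coagulation genes SG 2 stood at 3447 FPKM for Kng1 and 3188 FPKM for Fgb, with the other SG libraries between 1182 and 1530 FPKM and between 1899 and 2098 FPKM.

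The summed FPKM of SG 2 was 1795 for the classical and lectin initiators, 1386 for the terminal components, 4106 for the contact and intrinsic pathway and 8436 for fibrinogen and factor XIII. In the other SG libraries these sums reached at most 1172, 927, 2192 and 5023.

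In SHAM 5, LOC100911854 stood at 56.0 FPKM, against 36.2 to 40.3 FPKM in the other SHAM libraries, and its sum with LOC100911545 at 56.7 FPKM. The fibrinolysis genes summed to 860 FPKM in SHAM 3, the lowest of its group, against 1108 to 1168 FPKM in the rest.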

How the results depend on the processing

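No member passed the test under any of 21 other settings. Over all genes DESeq2 called 18, leaving out SG 2 and SHAM 5 together called 1, and leaving out single libraries called 0 to 1. Members at an unadjusted p under 0.05 numbered 4 higher and 0 lower in the main edgeR test. With limma on FPKM there were 8 higher at each pseudocount, where 646 genes of the whole table were higher and 54 lower, against 299 and 206 in edgeR. With reference-matching isoforms alone, or KEGG rows alone, there were 1 higher and 1 lower. Without both SG 2 and SHAM 5 there were 2 higher, and with single libraries left out 1 to 4 higher and 0 to 1 lower. There was 1 higher without SG 2 or SHAM 3, and there were 2 higher without SG 4 or SHAM 4. C1qc was the 1 lower without SG 2, and Vsig4 the 1 lower without SHAM 2. No shares over all genes are given for these fits, the reference-matching isoforms or the replicate block, so their counts are description alone. In the main edgeR test the shares of all genes were 2.68% higher and 1.85% lower. With the replicate block, where numbers do not pair the libraries (1 of 5 SG libraries correlated best with its own number), there was 1 higher, F11, and the median log2 fold change of the members was 0.04.

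Of 31 named genes tested, 25 kept the sign of their log2 fold change under all 21 settings and 6 did not. Clu was 0.011 and Serpina1 0.019 in limma at each pseudocount. Without both SG 2 and SHAM 5, C3 was -0.10, Kng1 -0.36 and the correlation of the acute phase score with Fgb -0.37. With single libraries left out, C3 lay between -0.12 (SG 2) and 0.16, Kng1 between -0.21 (SG 2) and 0.50, F12 between -0.057 (SG 4) and 0.14, Itgb2 between -0.54 and 0.023 (SHAM 5), the correlation of Fgb with Fgg between 0.68 (SG 2) and 0.94, and that of the acute phase score with Fgb between -0.15 (SG 2) and 0.78. The cause was not tested. With 5 libraries a group, a member's 95% interval had a median half-width of 0.44 (log2).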
